A study of Juglans cathayensis with 6 samples.

Results

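Laccase-14-like (TRINITY_DN15107_c2_g7) and laccase-15-like (TRINITY_DN15107_c2_g3) are 2 of the 39234 genes assembled from the husk of *Juglans cathayensis*, the Chinese walnut. Both belong to 1 cluster of the Trinity assembly and are described as laccases, and they were taken by identifier. They were chosen by their TPM values in brown and white husk, known beforehand, so the differences between the varieties are given for them as a description, without a test. RNA of the husk, the fleshy cover around the nut, was sequenced from a variety that turns brown when freshly cut (brown husk, 3 libraries) and from a variety that stays white (white husk, 3 libraries). The tissue was untreated and carries a time label of 35 days in all 6 libraries, with the starting event not stated. Each colour stands for 1 variety, so colour and any other trait of the varieties cannot be told apart. No label says that libraries of a variety came from separate trees, and p-values then measure the spread between these libraries, which may be technical. Levels are in TPM, an abundance scaled to gene length and library total that keeps no read depth, so counting error is unknown. In bulk tissue, fewer cells of a type and less RNA per cell cannot be told apart.

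Laccases are secreted enzymes of the multicopper oxidase family. They take electrons from phenolic compounds and pass them to oxygen, and the resulting phenoxyl radicals and quinones couple into polymers such as lignin and brown pigments. In Arabidopsis, laccase-15 is known as TRANSPARENT TESTA 10, which oxidizes flavonoids of the seed coat and browns it. Other Arabidopsis laccases, laccase-4 and laccase-17 among them, work in lignin formation in the stem. Unlike peroxidases, laccases need no hydrogen peroxide.

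The assembled models of the pair are close to each other in length, with 1948 bases for laccase-14-like and 1997 bases for laccase-15-like. Laccase-14-like is made up of 6 assembled transcripts and laccase-15-like of 1. The names were taken over from *Juglans regia* proteins, and the Swiss-Prot matches are Arabidopsis laccase-14 for the first and Arabidopsis laccase-15 for the second. The deposited annotation gives both a copper oxidase domain and the ortholog group of multicopper oxidases. They share 2 GO terms, copper ion binding and oxidation of metal ions, and laccase-15-like has 1 more, lignin biosynthesis. The KEGG entry of both reads L-ascorbate oxidase, a related multicopper oxidase, so that column names another enzyme than the description does. Sequence identity between them was not analysed here.

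Laccase-15-like was the member that separated the varieties. It had 17.2, 6.73 and 10.6 TPM in brown replicates 1, 2 and 3, against 0.9, 0.09 and 0.4 TPM in white replicates 1, 2 and 3. Every brown library lay above every white one. The means were 11.5 ± 5.28 TPM in brown husk and 0.463 ± 0.409 TPM in white husk (SD, n = 3 each), a ratio of 24.8. On the log2(TPM + 1) scale, which understates changes of low genes, the difference was 3.05 ± 0.41 (limma SE). Of the 37829 genes tested, 20.2% had all brown libraries above all white ones and 3.83% passed the limma threshold as higher in brown husk, and nothing is read from this for laccase-15-like, which was chosen by these values. Laccase-15-like reached the 1 TPM needed for testing only in its brown libraries, so its place among tested genes is not independent of that filter. It stood above 61.7% to 78.4% of all listed genes in the brown libraries and above 6.8% to 12% in the white ones. The difference ranged from 2.73 to 3.35 when each library was left out in turn.

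Laccase-14-like was the most abundant laccase in 5 of 6 libraries, and its spread within a variety was wider than its difference between them. It had 14.2, 66.7 and 34.9 TPM in brown replicates 1, 2 and 3, against 12.98, 177.7 and 69.8 TPM in white replicates 1, 2 and 3. The groups overlapped, as they did for 70.9% of tested genes (20.2% had all brown libraries higher and 8.85% all brown libraries lower), and the first library of both varieties was the low one. The means were 38.6 ± 26.5 TPM in brown husk and 86.8 ± 83.7 TPM in white husk (SD, n = 3 each). The log2 difference was -0.75 ± 0.92 (limma SE), and without white replicate 2 it was 0.08, with the opposite sign. The highest library exceeded the lowest 4.70-fold in brown husk and 13.7-fold in white husk. Its standard deviation on the log2 scale was 1.08 in brown husk, a value reached by 1.68% of the 15803 tested genes with a mean of at least 5 TPM. In white husk the standard deviation was 1.86, reached by 0.411% of those genes. The medians over those genes were 0.165 in brown and 0.294 in white husk. Laccase-15-like had standard deviations of 0.617 in brown husk, reached by 6.59% of those genes, and 0.401 in white husk, reached by 32.9%. In white husk the added 1 TPM flattens its values, which are below 1. Its highest library exceeded the lowest 2.55-fold in brown husk and 10.0-fold in white husk.

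**Figure D1:**
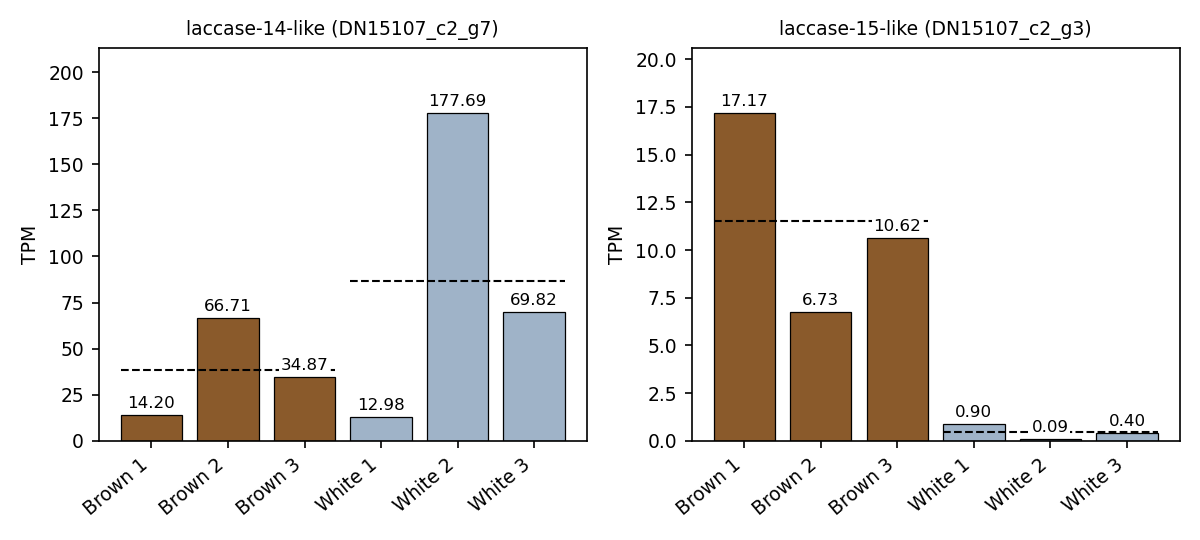
TPM (vertical axes) of laccase-14-like (left) and laccase-15-like (right) in the 3 brown and 3 white husk libraries; each bar is 1 library with its value and dashed lines are group means. Laccase-15-like is between 6.73 and 17.2 TPM in brown husk and at most 0.9 TPM in white husk, while the laccase-14-like groups overlap.

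The pair ordered the libraries in opposite ways, and each gene kept its order in both varieties. Laccase-14-like was highest in replicate 2, middle in replicate 3 and lowest in replicate 1, in brown husk and again in white husk. Among tested genes 2.95% had that order in both varieties. Laccase-15-like was highest in replicate 1, middle in replicate 3 and lowest in replicate 2 in both varieties, an order that 11.7% of tested genes share. The same order in both varieties, whichever it is, was found for 21.5% of tested genes. The labels do not say whether libraries with the same number have anything in common. Both genes are of 1 assembly cluster and reads could be split between them, so their orders and their ratio may not be independent.

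The ratio of laccase-14-like to laccase-15-like was 0.827, 9.91 and 3.28 in brown replicates 1, 2 and 3, against 14.4, 1974 and 174.5 in white replicates 1, 2 and 3. Every white ratio was above every brown one, and brown replicate 1 was the one library with more laccase-15-like than laccase-14-like transcript. The mean log2 ratio, with 1 TPM added to both levels, was 1.5 ± 1.70 in brown husk and 5.30 ± 2.26 in white husk (SD, n = 3 each). The white ratios rest on laccase-15-like values below 1 TPM, so their size is imprecise. The summed TPM of the pair was 31.4, 73.4 and 45.5 in the brown libraries and 13.9, 177.8 and 70.2 in the white ones, which overlap.

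Library properties differed as well, not in the same direction in both varieties, and their part in these values was not tested. White replicate 2, the highest library for laccase-14-like and the lowest for laccase-15-like, held 28349 genes at 1 TPM or more, against 34826 to 35240 in the brown and 33146 to 33949 in the other white libraries. Its 100 highest genes took 34.0% of TPM, against 24.7% to 27.2% in the other 5 libraries. Brown replicate 2, the highest brown library for laccase-14-like, held the most genes at 1 TPM or more, 35240. All 30 markers of green tissue had transcript in every library, with summed levels of 4433 to 8867 TPM in brown and 6461 to 8006 TPM in white husk, and none passed the test. Brown replicate 2 had the lowest of these sums, while white replicate 2 had the highest white one, 8006 TPM. Among 22 markers of lignified and vascular cells, summed levels were 1107 to 1197 TPM in brown and 1083 to 1343 TPM in white husk, with 5 at 0 in at least 1 library. Of the 22, 1 was higher in brown husk, against 3.83% of all tested genes. It was a cellulose synthase A subunit 7 gene (TRINITY_DN15855_c0_g2, limma adjusted p = 0.0151, not passed without brown replicate 2 or 3 or white replicate 3). That gene reached the 1 TPM needed for testing only in its brown libraries, so its call is not independent of that filter. The seed storage markers found were 2 oleosin genes, with summed levels of 12.3 to 23.9 TPM in brown and 36.2 to 52.0 TPM in white husk. One of them (TRINITY_DN17035_c0_g1) fell in brown husk (limma adjusted p = 0.0487), a call lost when any 1 library was left out. Over all tested genes 2.17% were called lower, and a list of 2 genes is too short to compare with that share.

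Besides the pair, 11 assembled genes carry laccase in a description, each below laccase-14-like in every library. The brown means of all 11 were below that of laccase-15-like, but 4 of them exceeded it in brown replicate 2, and 4 had a higher mean than it in white husk. Of the 11 models 7 are under 600 bases and the median is 431 bases, and whether some are pieces of 1 transcript was not tested. Laccase-13-like (TRINITY_DN8150_c0_g1), matched to Arabidopsis laccase-3 and 2793 bases long, had 6.28, 5.58 and 6.04 TPM in brown replicates 1, 2 and 3, against 7.44, 5.75 and 7.13 TPM in white replicates 1, 2 and 3. The log2 difference was -0.15 ± 0.21 (SE, limma adjusted p = 0.721), and the groups overlapped.

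A further laccase-14-like gene of nearly full length (TRINITY_DN11864_c1_g1, 1883 bases) was low in all libraries. It had 0.13, 2.19 and 1.56 TPM in brown replicates 1, 2 and 3, against 2.34, 2.52 and 1.92 TPM in white replicates 1, 2 and 3 (limma adjusted p = 0.461). Its groups overlapped, with brown replicate 1 the lowest library, as for laccase-14-like among the brown ones. A second laccase-15-like gene (TRINITY_DN1835_c0_g1, 778 bases) was listed at 0, 3.62 and 1.5 TPM in brown replicates 1, 2 and 3, and at 0.07, 0 and 0 TPM in white replicates 1, 2 and 3. It did not pass the filter on low values, and its order among brown libraries was the reverse of that of the long laccase-15-like gene.

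The short laccase models had most of their TPM in brown replicates 2 and 3. A 215-base laccase-14-like model (TRINITY_DN6921_c0_g1) was at 0, 10.4 and 8.64 TPM in brown replicates 1, 2 and 3, and at 1.24, 0 and 0 TPM in white replicates 1, 2 and 3. A 251-base laccase-14-like model (TRINITY_DN16221_c0_g1) was at 0, 12.8 and 3.02 TPM in the brown libraries and listed at 0 in all white ones. A laccase-7-like model of 265 bases (TRINITY_DN7462_c0_g1) was at 0, 10.5 and 5.29 TPM in the brown libraries and likewise at 0 in the white ones. These 3 models were at 0 in brown replicate 1, the library where laccase-15-like was highest.

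Of the other 5 models, a second laccase-7-like model (TRINITY_DN455_c0_g1) had 0.74, 10.5 and 4.18 TPM in brown replicates 1, 2 and 3 and at most 0.27 TPM in white husk. It was the only one of the 11 whose groups did not overlap, against 20.2% of tested genes with all brown libraries higher. Both putative laccase-9 models followed the same order, with 0.72, 4.6 and 2.32 TPM for TRINITY_DN14266_c0_g4 and 0.04, 2.66 and 1.63 TPM for TRINITY_DN14266_c0_g3 in brown replicates 1, 2 and 3. In white husk the first had 1.28, 0 and 0.36 TPM and the second 0.51, 0.06 and 0.41 TPM. The remaining pair were a laccase-14-like model of the same assembly cluster, described next, and one matched to both L-ascorbate oxidase and laccase-4 (TRINITY_DN11090_c0_g1), with 2.52, 6.34 and 0.41 TPM in brown and 1.35, 0 and 1.48 TPM in white husk. In all, 9 of the 11 had brown replicate 2 highest, replicate 3 middle and replicate 1 lowest, the order of laccase-14-like, which 20.2% of tested genes show. Only 5 of the 11 were tested, so that share is not drawn from genes as low as these. No listed gene peaks below 2.01 TPM, so a low model can be listed through 1 library alone.

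**Figure D2:**
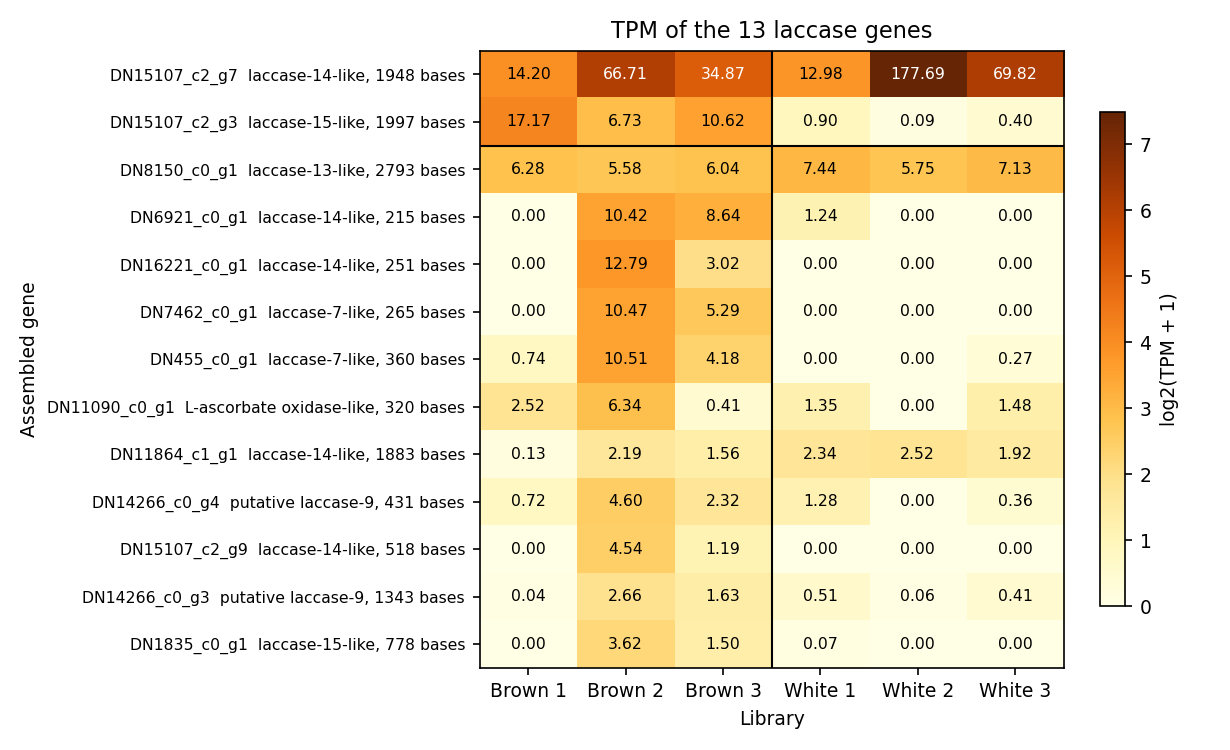
TPM of all 13 laccase genes (rows, with the length of each assembled model) in the 3 brown and 3 white libraries (columns); colour is log2(TPM + 1) and the printed values are TPM. The pair described here is above the line. Of the 11 models below it, 9 are highest of all 6 libraries in brown replicate 2. The share of all genes with that peak was not counted, and low models can be listed through 1 library alone.

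None of the 5 other laccases that passed the filter passed the test, also with an unadjusted p under 0.05 (0 of 5, limma). Over all 37829 tested genes 3.83% were called higher and 2.17% lower in brown husk, and 8131 had an unadjusted p under 0.05. The median log2 difference of the 5 was 0.88, against 0.19 for all tested genes. Without brown replicate 1 the 215-base laccase-14-like model TRINITY_DN6921_c0_g1 passed (limma adjusted p = 0.0297, against 0.298 with all libraries and 0.0297 to 0.679 over the alternatives). The 11 genes together had 10.4, 73.7 and 35.8 TPM in brown replicates 1, 2 and 3, against 14.2, 8.33 and 11.6 TPM in white replicates 1, 2 and 3, which overlap. Of these sums, the 7 models under 600 bases made up 3.98, 59.7 and 25.1 TPM in the brown and 3.87, 0 and 2.11 TPM in the white libraries. The 4 longer models summed to 6.45, 14.1 and 10.7 TPM in the brown and 10.4, 8.33 and 9.46 TPM in the white libraries.

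Laccase-14-like made up 34.0%, 45.3% and 42.9% of all laccase TPM in brown replicates 1, 2 and 3, against 46.2%, 95.5% and 85.4% in white replicates 1, 2 and 3. The highest brown share and the lowest white share lay close together. Among models of 600 bases or longer, a restriction chosen after seeing the data, its share was 37.5%, 76.2% and 62.0% in the brown libraries and 53.5%, 95.5% and 87.6% in the white ones, which overlap. Laccase-15-like made up 41.1%, 4.57% and 13.1% in the brown libraries, against 3.20%, 0.0484% and 0.489% in the white ones, and among the longer models 45.4%, 7.69% and 18.9% against 3.71%, 0.0484% and 0.502%. Summed over the 13 genes, laccase transcript was 41.8, 147.2 and 81.3 TPM in the brown and 28.1, 186.1 and 81.8 TPM in the white libraries, with means of 90.1 ± 53.3 and 98.7 ± 80.3 TPM (SD, n = 3 each). Total laccase transcript thus overlapped between the varieties, as did the share of laccase-14-like once short models were left out, while the share of laccase-15-like was higher in every brown library on both counts. Its lowest brown share of all laccase TPM, 4.57%, was not far from its highest white share, 3.20%. Laccase-15-like was chosen by its values in these libraries.

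**Figure D3:**
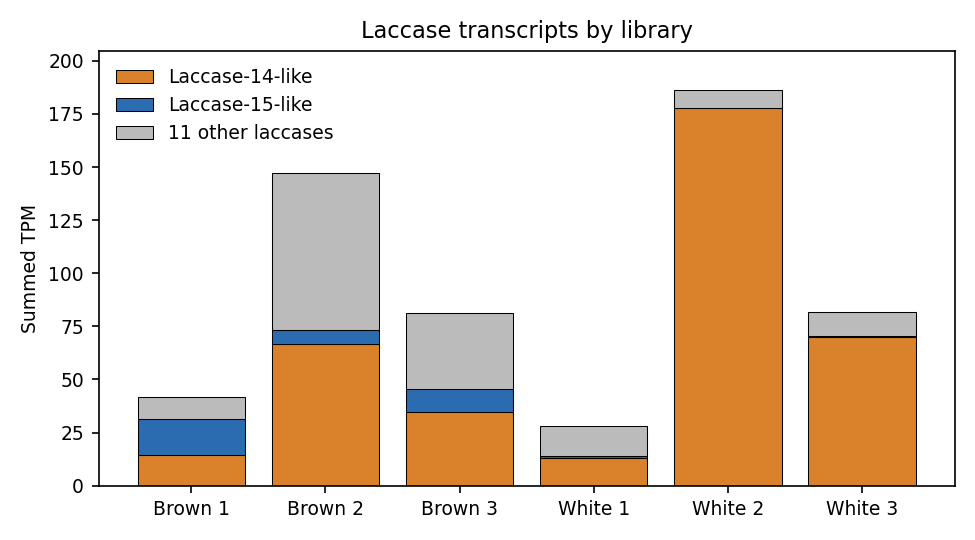
Summed TPM (vertical axis) of laccase-14-like, laccase-15-like and the 11 other laccases in each library, stacked in 1 bar per library. Totals overlap between brown and white husk; laccase-15-like makes up 4.57% to 41.1% of the bar in brown and at most 3.20% in white husk.

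The assembly cluster of the pair holds 9 genes, of which 3 are described as laccases, 4 have other descriptions and 2 have none. A Trinity cluster groups transcripts that share stretches of sequence in the assembly graph, and it is no gene family. The third laccase in it, a 518-base laccase-14-like model (TRINITY_DN15107_c2_g9), was listed at 0, 4.54 and 1.19 TPM in brown replicates 1, 2 and 3 and at 0 in all white libraries. Reads shared between it and the longer laccase-14-like gene could be split between them, and the levels of both are uncertain to that extent. The most abundant non-laccase gene of the cluster was matched to TT2 (TRINITY_DN15107_c2_g1), the MYB factor that turns on condensed tannin synthesis in the Arabidopsis seed coat. It had 34.2, 58.5 and 41.2 TPM in brown replicates 1, 2 and 3, against 49.9, 30.6 and 47.2 TPM in white replicates 1, 2 and 3. These groups overlapped and the log2 difference was 0.06 ± 0.26 (SE, limma adjusted p = 0.914).

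The other tested cluster genes did not pass either. An interferon-related developmental regulator 1 gene (TRINITY_DN15107_c2_g5) had 36.3 ± 3.12 TPM in brown and 25.1 ± 5.95 TPM in white husk (SD, n = 3 each, limma adjusted p = 0.172). A 428-base model matched to a mannitol dehydrogenase of the cinnamyl alcohol dehydrogenase family (TRINITY_DN15107_c2_g6) had 3.29 ± 0.670 and 4.54 ± 1.62 TPM in brown and white husk. An uncharacterized gene (TRINITY_DN15107_c2_g4) had 13.6 ± 1.22 and 12.6 ± 1.18 TPM in brown and white husk. The pair without description, TRINITY_DN15107_c2_g2 and TRINITY_DN15107_c2_g8, had 3.13 ± 0.539 and 2.71 ± 1.12 TPM in brown husk, against 1.76 ± 1.80 and 1.35 ± 0.255 TPM in white husk. Of the 6 tested genes in the cluster besides the pair, none passed by limma. An unadjusted p under 0.05 was found for 1 of them, against 8131 of all 37829 tested genes. Their log2 differences ran from -0.34 to 0.76, below that of laccase-15-like.

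**Figure D4:**
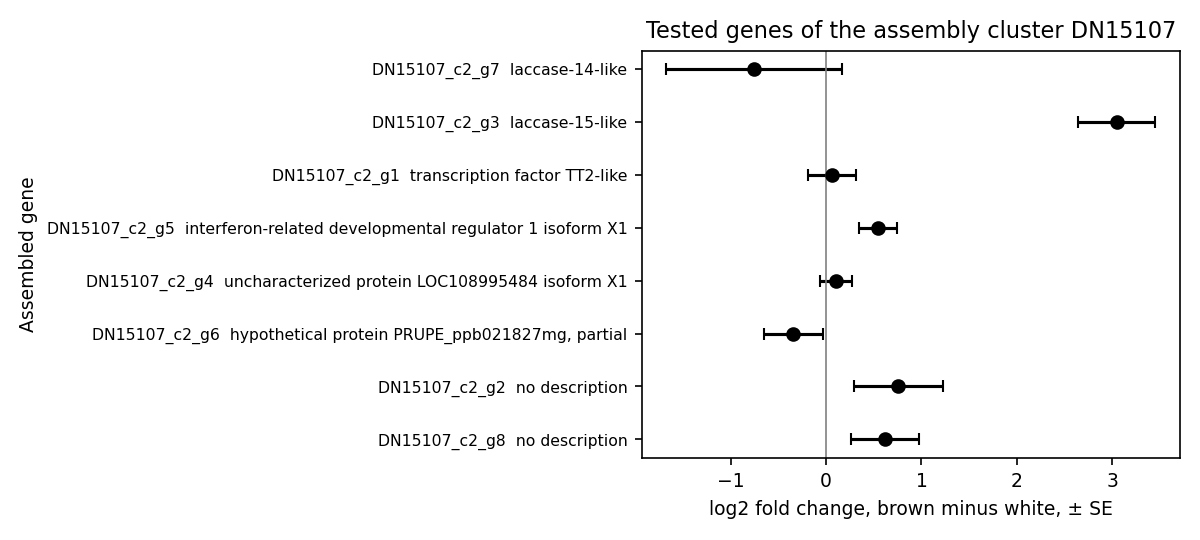
Log2 fold change, brown minus white husk on the log2(TPM + 1) scale, with its limma SE (horizontal axis) for the 8 tested genes of the assembly cluster (rows). Laccase-15-like stands at 3.05, and the 6 genes other than the laccase pair lie between -0.34 and 0.76.

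Likeness of pattern was measured as Pearson's r of log2(TPM + 1) over the 6 libraries, among 10644 tested genes with a naming description and a mean of at least 5 TPM. Libraries of a variety share that variety, and r ignores the size of a change. For laccase-15-like, 229 genes (2.15%) reached an r of 0.95. The closest was ERF106-like (TRINITY_DN15528_c3_g2), an ethylene response factor, with 191.0, 120.7 and 158.4 TPM in brown replicates 1, 2 and 3, against 64.0, 48.5 and 52.0 TPM in white replicates 1, 2 and 3 (r = 0.999). Like laccase-15-like it was highest in replicate 1 and lowest in replicate 2 of both varieties. The next were a BREAST CANCER SUSCEPTIBILITY 1 homolog (TRINITY_DN1422_c0_g1, r = 0.998), a DNA repair protein, and an acyl-activating enzyme 16 gene (TRINITY_DN14605_c2_g1, r = 0.996). They were followed by CYPRO4-like (TRINITY_DN14603_c1_g3, r = 0.995) and the cytochrome P450 CYP82D47-like (TRINITY_DN13978_c0_g6, r = 0.994). In all 5 every brown library was above every white one, as in 20.2% of tested genes. The 5 were picked by r with laccase-15-like, so this and their order of libraries largely follow from the choice. Their log2 differences were 0.32 to 2.10, against 3.05 for laccase-15-like. With TMM factors the 5 correlations ranged from 0.565 to 0.997, and with quantile normalization from 0.347 to 0.999.

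For laccase-14-like, 36 genes (0.338%) reached an r of 0.95. The closest were the 40S ribosomal protein S15a-like gene TRINITY_DN11405_c1_g2 (r = 0.987) and the 60S ribosomal protein L22-2-like gene TRINITY_DN11806_c2_g5 (r = 0.986), parts of the ribosome. A plant intracellular Ras-group-related LRR protein 4-like gene (TRINITY_DN13475_c1_g1) also had an r of 0.986. A peptide chain release factor subunit 1-3 gene (TRINITY_DN15632_c0_g3, r = 0.982), which ends translation, and a dihydroneopterin aldolase 2-like gene of folate synthesis (TRINITY_DN13012_c2_g7, r = 0.981) came next. These 5 varied far less than laccase-14-like, with a highest over lowest library of 1.26 to 2.16, against 13.7. The S15a-like gene had 663.8, 865.3 and 837.9 TPM in brown replicates 1, 2 and 3, against 649.5, 1153 and 920.5 TPM in white replicates 1, 2 and 3. Both first libraries were low and white replicate 2 was highest, the pattern by which this gene was picked. With quantile normalization the 5 correlations ranged from 0.849 to 0.979.

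**Figure D5:**
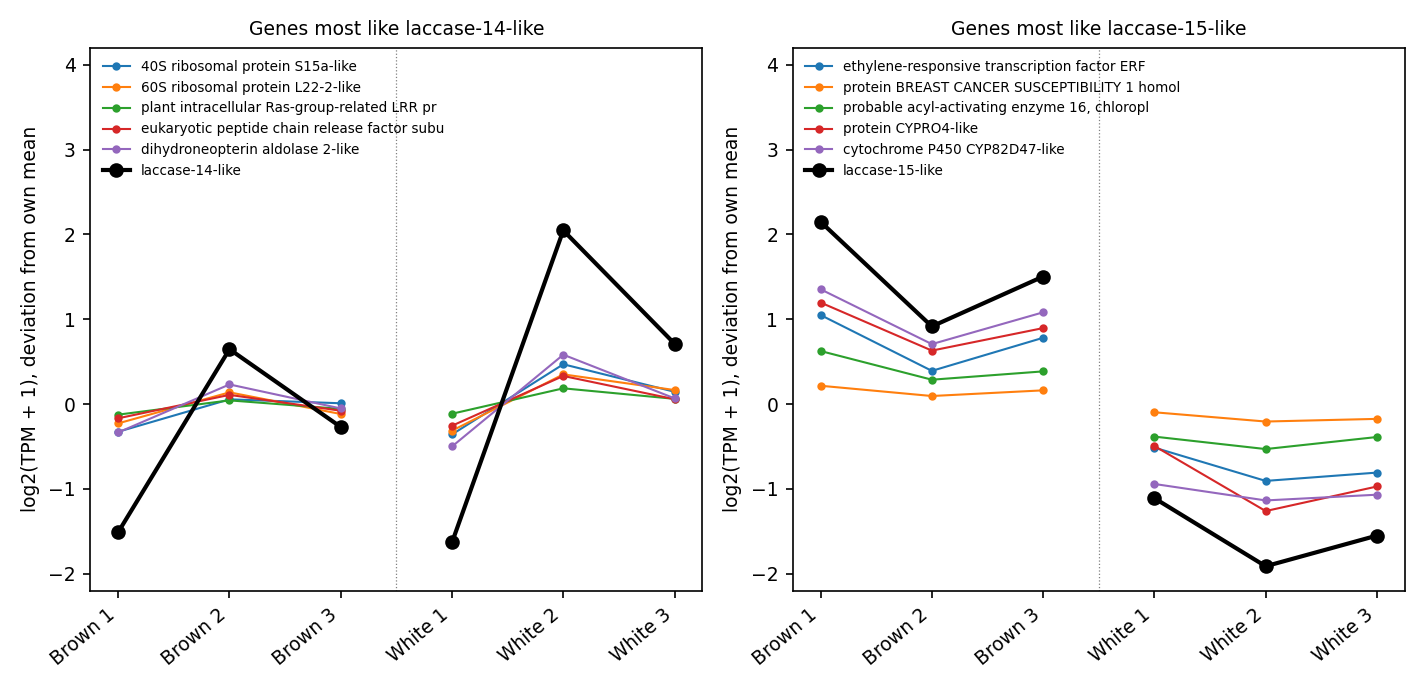
Deviation of log2(TPM + 1) from each gene's own mean (vertical axes) in the 3 brown and 3 white libraries for laccase-14-like (left, black), laccase-15-like (right, black) and the 5 genes most like each. The 5 on the left vary 1.26-fold to 2.16-fold over the libraries, and the 5 on the right are higher in every brown library than in any white one. Both sets were picked for their likeness to the black line, so their order of libraries largely follows from the choice.

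Genes that work beside laccases were counted by lists taken from their descriptions, with all tested genes (3.83% higher, 2.17% lower, median log2 difference 0.19) as the background. Among other multicopper oxidases, which include ascorbate oxidases and root-growth oxidases, none of 10 tested genes passed by limma, 3 had an unadjusted p under 0.05, and the median was 0.44. This list also holds TRINITY_DN11090_c0_g1, described as L-ascorbate oxidase-like and already counted among the 11 other laccases. Multicopper oxidase LPR2-like (TRINITY_DN11092_c0_g3), the most abundant, had 26.7 ± 8.10 TPM in brown and 28.5 ± 12.6 TPM in white husk (SD, n = 3 each). An L-ascorbate oxidase gene (TRINITY_DN11090_c0_g2), named after its values were seen, had 1.54, 10.99 and 6.71 TPM in brown and 0.28, 0.09 and 0.12 TPM in white husk. Its adjusted p was 0.0534 by limma, and it passed with both smaller pseudocounts and without brown replicate 1. It reached the 1 TPM needed for testing only in its brown libraries. Reads could be split between it and TRINITY_DN11090_c0_g1, which is of the same assembly cluster. Of 18 genes for copper transport and copper chaperones, which supply the metal, 1 fell, none rose and the median was -0.03. Among the 18, 3 had an unadjusted p under 0.05 by limma. The gene that fell, copper transporter 5.1-like (TRINITY_DN13017_c0_g1), had 42.4 ± 6.11 TPM in brown and 75.8 ± 10.3 TPM in white husk (log2 difference -0.83 ± 0.17, SE, limma adjusted p = 0.0333). Its call was lost without any 1 library other than white replicate 1. Of 10 blue copper proteins, small electron carriers of the wall, 1 rose and the median was 0.47. For 5 of the 10 the unadjusted limma p was under 0.05. The gene that rose was umecyanin-like (TRINITY_DN2850_c0_g1), with 27.8, 121.6 and 85.2 TPM in brown and 14.6, 5.64 and 12.8 TPM in white husk. Its call was lost without any 1 library other than brown replicate 1.

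Flavan-3-ols and their polymers are the substrates of laccase-15 in the Arabidopsis seed coat. Of 25 tested genes on the route to them 1 rose, and the median was 0.42. An unadjusted p under 0.05 by limma was found for 7, against 8131 of all 37829 tested genes. Chalcone synthase-like (TRINITY_DN447_c0_g1), at the start of the route, had 8.89, 42.6 and 26.8 TPM in brown replicates 1, 2 and 3, against 2.58, 0.24 and 1.61 TPM in white replicates 1, 2 and 3 (log2 difference 3.34 ± 0.61, SE, limma adjusted p = 0.0228). The call was lost without brown replicate 2 or 3 or white replicate 2 or 3. At the end of the route, none of 5 genes for anthocyanidin reductase and leucoanthocyanidin reductase passed, with a lowest limma adjusted p of 0.0584. These 5 were singled out by name after the data were seen. The anthocyanidin reductase gene TRINITY_DN10855_c0_g1 had 38.8, 152.2 and 90.4 TPM in brown replicates 1, 2 and 3, against 45.6, 11.7 and 38.0 TPM in white replicates 1, 2 and 3. Its brown libraries stood in the order of laccase-14-like, which 20.2% of tested genes share, and its white libraries in that of laccase-15-like, which 42.5% share.

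Monolignols are the lignin precursors that laccases polymerize. Of 60 tested genes of their synthesis 18 had an unadjusted p under 0.05 by limma. Of the 60, 2 rose and 2 fell, with a median of 0.17, and each of the 4 is described as a caffeic acid 3-O-methyltransferase. The largest in level, TRINITY_DN12098_c0_g2, had 31.2 ± 3.68 TPM in brown and 17.2 ± 2.75 TPM in white husk (limma adjusted p = 0.0367), a call lost without any 1 library other than white replicate 2. TRINITY_DN15541_c0_g1 had 11.4 ± 2.60 and 4.87 ± 0.651 TPM in brown and white husk (limma adjusted p = 0.0436), not past the threshold when any 1 library was left out or with TMM factors. TRINITY_DN15081_c0_g3 fell to 1.47 ± 0.338 TPM in brown husk, against 7.47 ± 2.11 TPM in white husk, a call kept in the fits without white replicate 1 or 2 and lost in the other 4. The fourth, TRINITY_DN14125_c5_g1, was listed at 0 in the brown libraries and at 3.09, 5.7 and 3.37 TPM in the white ones, and its call was lost without brown replicate 3. It reached the 1 TPM needed for testing only in its white libraries, so its call is not independent of that filter.

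Dirigent proteins guide the coupling of phenoxyl radicals of the kind laccases make. Of 12 tested dirigent genes 4 rose and none fell, 33.3% against 3.83% of all tested genes, and the median of the 12 was 0.64. Among the 12, 6 had an unadjusted p under 0.05 by limma. Dirigent protein 22-like TRINITY_DN15176_c1_g1 had 29.5, 57.6 and 50.04 TPM in brown replicates 1, 2 and 3, against 1.54, 0.59 and 1.15 TPM in white replicates 1, 2 and 3 (log2 difference 4.45 ± 0.31, SE, limma adjusted p = 0.000661). Dirigent protein 19-like TRINITY_DN13193_c1_g8 had 19.0, 56.3 and 37.4 TPM in brown and 3.25, 1.82 and 2.2 TPM in white husk (limma adjusted p = 0.00488). Both passed in every fit that left out 1 library. TRINITY_DN13193_c1_g5, with 52.0 ± 31.0 TPM in brown and 9.99 ± 1.92 TPM in white husk, kept its call in 1 of those 6 fits, the one without brown replicate 1. The fourth, TRINITY_DN13193_c1_g2, had 32.7 ± 13.04 TPM in brown and 6.27 ± 1.52 TPM in white husk and lost its call without brown replicate 3. TRINITY_DN13193_c1_g8, TRINITY_DN13193_c1_g5 and TRINITY_DN13193_c1_g2 belong to 1 cluster of the Trinity assembly. Reads could be split among these genes, so their calls may not be independent, and the share of 33.3% is uncertain to that extent. The brown libraries of all 4 were ordered as those of laccase-14-like, with replicate 2 highest and replicate 1 lowest (20.2% of tested genes). In white husk replicate 2 was the lowest for all 4, and 3 of them had the order of laccase-15-like (42.5% of tested genes).

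Among the other enzymes that oxidize phenolics, 3 of 29 tested class III peroxidases rose and none fell, with a median of 0.68. That was 10.3%, against 3.83% of all tested genes, and 14 of the 29 had an unadjusted p under 0.05 by limma. Of 2 polyphenol oxidases 1 rose, a list too short to compare with that share. Both had a positive log2 difference and an unadjusted p under 0.05 by limma, and the median was 2.78. The calls were those of peroxidase 73-like (TRINITY_DN15585_c2_g1), peroxidase 27-like (TRINITY_DN2854_c0_g1), cationic peroxidase 1-like (TRINITY_DN10961_c0_g1) and polyphenol oxidase TRINITY_DN12255_c0_g1. Peroxidase 73-like passed in all 6 fits that left out 1 library, peroxidase 27-like in 2 and cationic peroxidase 1-like in 1. The count for peroxidases was 7 without brown replicate 1, and 1 without brown replicate 2, brown replicate 3 or white replicate 3. Polyphenol oxidase TRINITY_DN12255_c0_g1 lost its call without brown replicate 3. In TPM, polyphenol oxidase had 78.3, 162.4 and 121.2 in brown replicates 1, 2 and 3, against 34.3, 20.3 and 29.2 in white replicates 1, 2 and 3. Laccase-15-like was below it in all 6 libraries, and laccase-14-like was below it in every brown library and above it in white replicates 2 and 3.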

How the data were processed

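RNA of 6 husk libraries was sequenced, 3 from each variety; the submitters' processing notes list cutadapt and FastQC. Genes come from a Trinity assembly, as their identifiers show; quantifier and read depth: not given in the sources used here. TPM values were deposited by the authors per gene and library. No gene in the table peaks below 2.01 TPM, so lower genes are not in it. The 37829 genes that reached 1 TPM in 3 or more libraries were compared, brown minus white, with limma 3.58.1 (mean-variance trend, R 4.3.3) on log2(TPM + 1), with Benjamini-Hochberg adjusted p under 0.05 as the threshold. The fit was tested on simulated data with independent noise for each gene and library. No effect of a whole library was simulated, so that test cannot decide how the fit handles an outlying library. Alternatives were other pseudocounts, filters, scalings (TMM factors computed on TPM, quantile) and variance models, the replicate number as a block, and leaving out libraries.

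Lists are text patterns on the protein descriptions, with organism names removed and 3 matches dropped by name. The laccase pair and the lists were chosen with earlier results of these data known. By rule the text names all laccases and cluster genes, in each list up to 3 members past the threshold or else the most abundant, and the 5 genes most like each laccase. The fourth gene past the threshold in a list, the marker genes and the reductases were named after their values were seen.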

Additional observations from a re-analysis of the deposited data

How the results depend on the processing

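Laccase-15-like was higher in brown husk in every alternative run, with log2 differences of 4.57 and 3.63 at pseudocounts of 0.1 and 0.5 and 2.73 to 3.35 with 1 library left out. Laccase-14-like had the opposite sign with array weights (0.0759) and without white replicate 2 (0.0816), in a range of -1.76 to 0.08 with 1 library left out. The mean log2 ratio of the pair, brown minus white, was -5.01 to -2.77 with 1 library left out, against -3.80.

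No label ties replicate numbers to trees or batches. Deviations of same-numbered libraries from their group means correlated at 0.057, 0.056 and 0.011 across genes, each library best with its own number. These values are small, and taking deviations from means of 3 libraries ties them to each other, so they cannot decide on pairing. The numbers were not taken as pairs. With the replicate number as a block 735 genes were higher and 490 lower, 0 copper transport genes were lower, 0 blue copper, flavan-3-ol and monolignol genes were higher and 1 flavan-3-ol gene was lower, and the SE of laccase-14-like was 0.30 in place of 0.92. Without the second library of both groups, an alternative chosen after seeing the data, 561 were higher and 476 lower, 2 dirigent genes were higher, and 0 copper transport, blue copper, flavan-3-ol and monolignol genes passed. Over all genes 1275 were lower with quantile normalization (1259 higher) and 1153 with TMM factors (1356 higher), against 819 lower and 1450 higher; the median log2 difference of all genes was 0.19 with deposited values, 0.05 after TMM scaling and -0.01 after quantile normalization. Leaving out 1 library gave 410 to 1255 higher and 259 to 1013 lower.

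Higher counts under other settings were 1 multicopper oxidase at pseudocounts of 0.1 and 0.5 and without the trend; 0 blue copper proteins at 0.1, without the trend and with array weights; 2 flavan-3-ol genes without the trend; 1 monolignol gene with TMM factors, quantile normalization and array weights, and 0 without the trend; 1 peroxidase without the trend; and 2 polyphenol oxidases at 0.5. Lower counts were 2 copper transport genes with a filter of 5 TPM, TMM factors and quantile normalization, and 0 without the trend; 4 monolignol genes with quantile normalization; and 1 peroxidase with a filter of 5 TPM, TMM factors and quantile normalization. With 1 library left out, 0 to 1 other laccases and multicopper oxidases were higher, 0 to 2 copper transport genes lower, 0 to 2 blue copper and flavan-3-ol genes higher, 0 to 1 flavan-3-ol, dirigent and peroxidase genes lower, 0 to 3 monolignol genes higher and 0 to 4 lower, 2 to 4 dirigent genes, 1 to 7 peroxidases and 0 to 2 polyphenol oxidases higher. The cause was not tested. Of 15 named list genes past the threshold, 3 stayed past it in each fit that left out 1 library. Depth is unknown, and levels below 1 TPM carry the least information.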
